A study of Mus musculus with 48 samples.

Results

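The comparison asks which transcripts changed with maturation in the ribosomes captured from gonadotropin-releasing hormone (GnRH) neurons differently from how they changed in the surrounding preoptic area, in female mice exposed before birth to vehicle. For each gene the log2 ratio of the immunoprecipitate (IP) to its GnRH-depleted supernatant was taken in adult mice, and the same ratio in young mice was subtracted from it. A positive value means that the IP gained on its supernatant with age, and a negative value that it lost. The members are 22 of the 48 libraries, which form 5 adult pairs and 6 young pairs, an IP being tied to the supernatant of the same condition and replicate number.

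The mice of these 22 libraries carried GnRH CRE and Floxed L10a-GFP, so that Cre, driven in GnRH neurons, switched on a copy of the ribosomal protein L10a that carries green fluorescent protein (GFP). Tissue was punched from the preoptic area of the hypothalamus of young, prepubertal females or of adult females in diestrus, the quiet stage of the ovarian cycle. Ages in days are not given in the sources used here, and 1 protocol line speaks of both sexes although the series is described as female. All had prenatal vehicle, so no androgen exposure enters the comparison. A further IP and supernatant, 1 library each, came from young mice that carried Floxed L10a-GFP without Cre and whose prenatal treatment the labels do not give. This pair gives the background of the capture in young mice, and no such pair from adults was analysed here. Another 24 libraries, from young and adult mice of the same genotype exposed before birth to dihydrotestosterone (DHT), an androgen, gave the same contrast in samples that share no library with it. The labels call the replicates biological without saying whether each is a single mouse or a pool, and the tests weigh changes against the spread of these samples, part of which may be technical.

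GnRH neurons are a small, scattered population that releases GnRH into the portal blood to drive the pituitary gonadotropins. Their output is restrained before puberty and turns into regular pulses with it, under the influence of kisspeptin and gonadal steroids. Capture of tagged ribosomes enriches the RNA under translation in those cells, and any RNA that sticks to beads or antibody comes with it. A change in the IP alone can therefore come from the neurons or from that background. In these bulk samples, fewer cells of a type and less RNA per cell cannot be told apart.

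Library totals ran from 32866821 to 55479451 counts, and levels are given as CPM, in which each gene's count is divided by its library's total. IP libraries of a group resembled each other less than supernatants did: the median correlation of log2 CPM across genes was 0.908 within adult IP, 0.940 within young IP and 0.990 to 0.992 within supernatants. Of the tested genes, 8.50% ± 2.03 (SD, n = 5) had no read in an adult IP and 4.46% ± 1.27 (n = 6) in a young IP, against 4.58% in the IP without Cre. Gnrh1, the defining transcript of the captured neurons, was measured at 1751 to 6817 CPM in young IP and 1951 to 16070 CPM in adult IP. It stood at 61.6 CPM in the IP without Cre.

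With maturation the IP changed relative to its supernatant in both directions, with large falls and mostly small rises. Among genes of at least 5 CPM whose pair ratios did not overlap between ages, the largest falls were those of the matrix glycoprotein gene Emilin1, the cell cortex gene Phldb2, the neurofilament light chain gene Nefl and the kinesin gene Kifc3. The largest rises were those of the autophagy gene Atg7, the synaptic exchange factor gene Kalrn and the ubiquitin ligase gene Ubr3. Among 16201 genes tested, 25 rose (0.154%) and 50 fell (0.309%), together 0.463%, at an adjusted p below 0.05 by edgeR's quasi-likelihood test with Benjamini-Hochberg adjustment. The rises had a median log2 change of 0.60 (range 0.41 to 2.13), and 3 of 25 reached 2-fold. The falls had a median of -2.17 (range -9.18 to -0.58), and 40 of 50 reached 2-fold. The log2 ratios of adult and young pairs did not overlap for 25 of 25 rises and 43 of 50 falls, against 2.49% of all genes tested. The calls were made on these same pairs, so the lack of overlap is not separate support for them. Rises made up 33.3% of the calls, a share that became 45.8% with RLE size factors and 23.1% with library totals as the only scaling. By limma-voom it was 68.7% and by limma on pair ratios 60.2%, so the more frequent direction turned with those tools. Without the term that ties each IP to its supernatant, the counts were 40 higher and 162 lower, of which 16 and 41 were among the calls above. Each count also moved by over 1.5 times when single pairs were left out, from 4 to 60 for the rises and from 19 to 54 for the falls.

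The IP was the fraction that moved for most of the falls. Adult IP was itself called lower than young IP for 46 of the 50 falls, where 1.55% of 14873 genes were so called, and the supernatant was called higher with age for 4 and lower for 6, against 8.39% and 10.8% of 15815 genes (19.2% in either direction). Of the 25 rises, 14 were called higher in adult than in young IP, against 1.2% of all genes, and 2.76% of genes were called in either direction. For 2 rises, Uqcrfs1 and the adenine nucleotide carrier gene Slc25a4, the supernatant fell while the IP was not called. Slc25a4 is named after its values were seen.

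Of the neurofilament genes, Nefl, Nefm and Ina fell. Nefl, which encodes the light chain of the neurofilaments that support axon calibre, lies on chromosome 14 from 68083863 to 68089095. In young IP it was measured at 6122 CPM in the lowest library, 17720 at the median and 31490 in the highest. In the 5 adult IP libraries it stood at 1106, 1114, 704, 649 and 821 CPM. Every adult IP was thus below every young IP, while the supernatants overlapped, at 695 to 908 CPM in young and 660 to 802 CPM in adult mice. Its fraction-by-stage value on the log2 scale was -4.01 ± 0.29 (SE; adjusted p = 2.5e-05 by edgeR).

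Nefm, the medium chain, fell by 2.05 on the log2 scale (SE 0.30, edgeR adjusted p = 0.00775), from 242 to 1097 CPM in young IP to 59.3 to 136 CPM in adult IP. Its supernatant also fell, by 0.71 on the log2 scale. Nefl lies inside the span of Nefm on the opposite strand, and the library kit does not mark strand, so how far reads of the pair are shared is uncertain. Ina, which encodes alpha-internexin, a partner of the neurofilament chains, fell by 0.69 (SE 0.14, edgeR adjusted p = 0.0485). That call held in 1 of the 11 fits that each left out a pair, with adjusted p from 0.0441 to 0.149, and its adjusted p was 0.064 without the replicate block. The heavy chain gene Nefh was at -2.43 ± 0.51 (edgeR adjusted p = 0.0543). Of the 24 tested genes of the neurofilament and cytoskeleton list, Nefl, Nefm and Ina fell, none rose, and 16 had positive values. The list median was 0.24, against -0.10 over all genes and 0.13 over genes with a mean of 100 CPM or more. Over all 16201 genes tested, 0.309% fell, 0.154% rose and 6887 had positive values. The summed level of the list was 16741 to 46859 CPM in young IP, 10457 to 13438 CPM in adult IP and 44705 CPM in the IP without Cre.

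**Figure D1:**
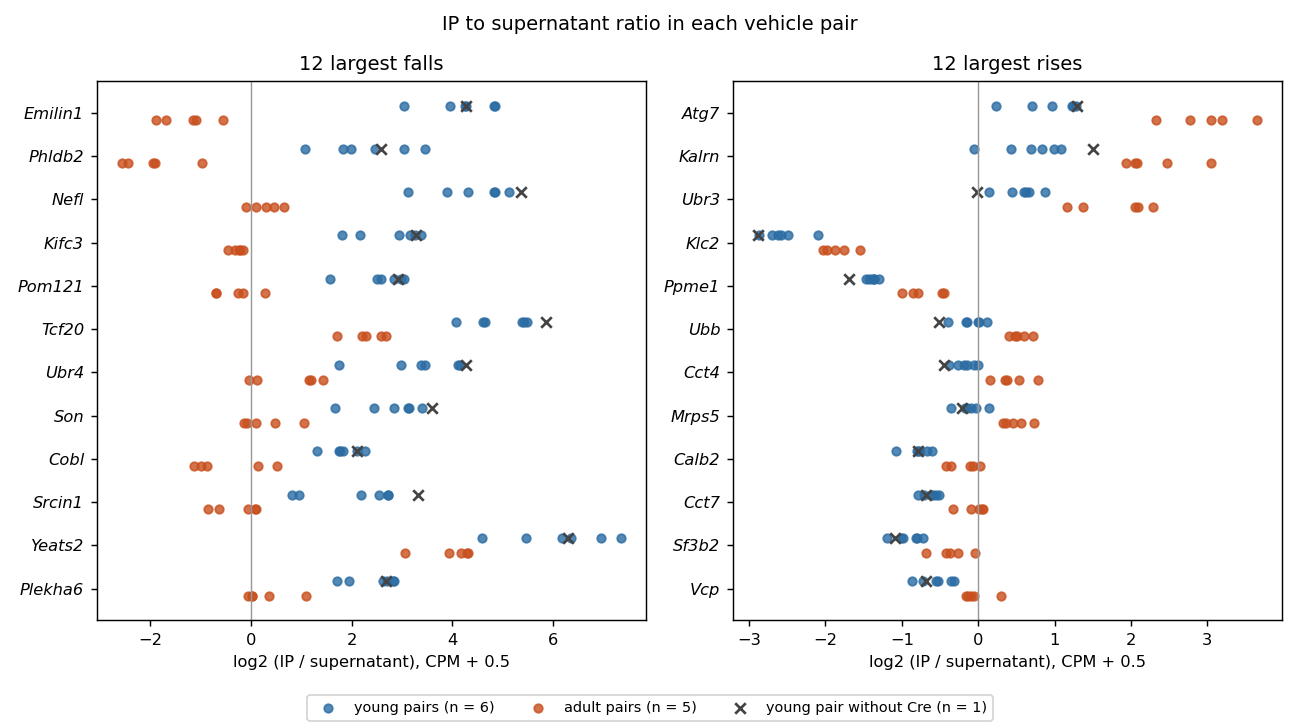
Log2 ratio of IP to supernatant CPM (0.5 added to each) in every vehicle pair for the 12 largest falls (left) and 12 largest rises (right). Blue points are the 6 young pairs, orange points the 5 adult pairs, and crosses the young pair without Cre. Adult and young points do not overlap for any gene shown, which the choice of genes required; for Nefl the cross, at 5.37, lies beyond the young pairs.

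The other large falls were spread over several functions. Emilin1, an extracellular matrix glycoprotein gene, went from 24.4 to 50.5 CPM in young IP to 0.0233 to 0.314 CPM in adult IP, which is 8709 reads over 6 libraries against 21 over 5. Its log2 change was -8.02 ± 0.70 (edgeR adjusted p = 9.67e-05). Phldb2, which encodes a protein that anchors microtubules at the cell cortex, went from 6.79 to 45.4 CPM to 0.0233 to 0.89 CPM, a change of -6.38 ± 0.89 (edgeR adjusted p = 0.00569). Both sat within a few CPM of 0 in every supernatant, at 0.31 to 5.43 CPM across the 2 genes and ages.

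Kifc3, a minus-end-directed kinesin gene on chromosome 8, was measured in young IP at 239 CPM in the lowest library, 559 at the median and 663 in the highest. Adult IP libraries stood at 74.3, 70.6, 66.6, 54.2 and 57.5 CPM, all below the young ones and near the supernatant medians of 67.7 and 78.3 CPM. Its log2 change was -3.00 ± 0.24 (edgeR adjusted p = 5.7e-05). Pom121, a nuclear pore membrane protein gene, changed by -2.85 ± 0.26, from 80.4 to 187 CPM in young IP to 17.6 to 43.9 CPM in adult IP.

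Genes of transcription and RNA processing followed. Tcf20, a transcriptional coregulator gene, changed by -2.58 ± 0.25 and Son, a nuclear speckle and splicing protein gene, by -2.43 ± 0.28. Yeats2, a histone reader of a histone acetyltransferase complex, changed by -2.14 ± 0.40. In adult IP Yeats2 was still at 148 to 309 CPM, far above its supernatant (median 15.1 CPM), and Tcf20 at 32.2 to 79.5 CPM against 10.3 CPM. Enrichment of these 2 over the supernatant was thus smaller in adults but present in every pair. Son, in contrast, was about level with its supernatant in adult replicates 3, 4 and 5, with pair log2 ratios from -0.14 to 0.10. It was above its supernatant in adult replicates 1 (0.48) and 2 (1.06).

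Among genes of the cytoskeleton and protein turnover, Cobl, an actin nucleator gene, changed by -2.27 ± 0.31 and Srcin1, which encodes a Src kinase inhibitor of synapses, by -2.21 ± 0.35. Ubr4, a large ubiquitin ligase gene, changed by -2.47 ± 0.39 and Plekha6, which encodes a pleckstrin homology domain protein, by -2.10 ± 0.25. The edgeR adjusted p of the 12 largest falls ran up to 0.035, for Yeats2. Of these 12, 11 were called without each pair in turn; Yeats2 was lost in 8 of 11 such fits, without adult replicate 1, 3, 4 or 5 or young replicate 1, 2, 3 or 4 (adjusted p 0.0515 to 0.0899). Of these 12 genes, 5 overlap another protein-coding gene, among them Nefl (Nefm), Pom121 (Nsun5), Ubr4 (Emc1) and Son (Donson), and reads in an overlap cannot be assigned.

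Smaller falls included 2 abundant transcripts named after their values were seen. Fth1, the ferritin heavy chain gene of iron storage, was at 2502 to 6083 CPM in young IP and at 2579, 1324, 2011, 1617 and 2358 CPM in adult IP. The levels touched, but the pair ratios did not, and the change was -1.07 ± 0.16 (edgeR adjusted p = 0.0092). Without a single pair its adjusted p ran from 0.00837 to 0.066. Nrsn1, which encodes a neuronal vesicle protein, changed by -1.15 ± 0.13 (edgeR adjusted p = 0.0012), with the IP down from 613 to 861 CPM to 331 to 556 CPM and the supernatant up by 0.39 on the log2 scale.

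Many of the falls were transcripts that the capture also took from young mice without Cre. In the pair without Cre, 26 of the 50 falls (52.0%) were 2-fold or more higher in the IP than in the supernatant, against 9.34% of all genes tested and 2 of the 25 rises (8.0%). The 12 largest falls with at least 5 CPM in the highest vehicle group and no overlap of pair ratios, described above, were all among them, whereas of the 12 falls under 5 CPM in every group 2 were (16.7%) and 8 had a ratio below 0. In the 12 described above the log2 ratios without Cre ran from 2.11 for Cobl to 6.30 for Yeats2. For Nefl that ratio was 5.37, with 29998 CPM in the IP without Cre, inside the range of the young IP with Cre. In 7 of these 12 genes the ratio without Cre lay within the range of the 6 young pairs and in the other 5 above it. Since only young mice gave a pair without Cre, a fall of the captured background with age and a fall in GnRH neurons cannot be told apart for these genes.

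The relation ran across all genes of at least 5 CPM in the highest vehicle group. In the 19 genes whose ratio without Cre was 4 or more on the log2 scale, the median fraction-by-stage change was -1.90, and the median ratio was 4.20 in young and 2.77 in adult pairs. It was -0.32 in the 99 genes with a ratio of 2 to 4, -0.26 in the 800 genes from 1 to 2 and -0.01 in the 3384 genes from 0 to 0.5. In the 1060 genes with a ratio below -1 it was 0.09. A fit that left out every gene 2-fold or more higher in that IP held 14688 genes, of which 13 rose and 10 fell. It left out 26 of the 50 falls and 2 of the 25 rises, so further falls and rises lost their call while still being tested.

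**Figure D2:**
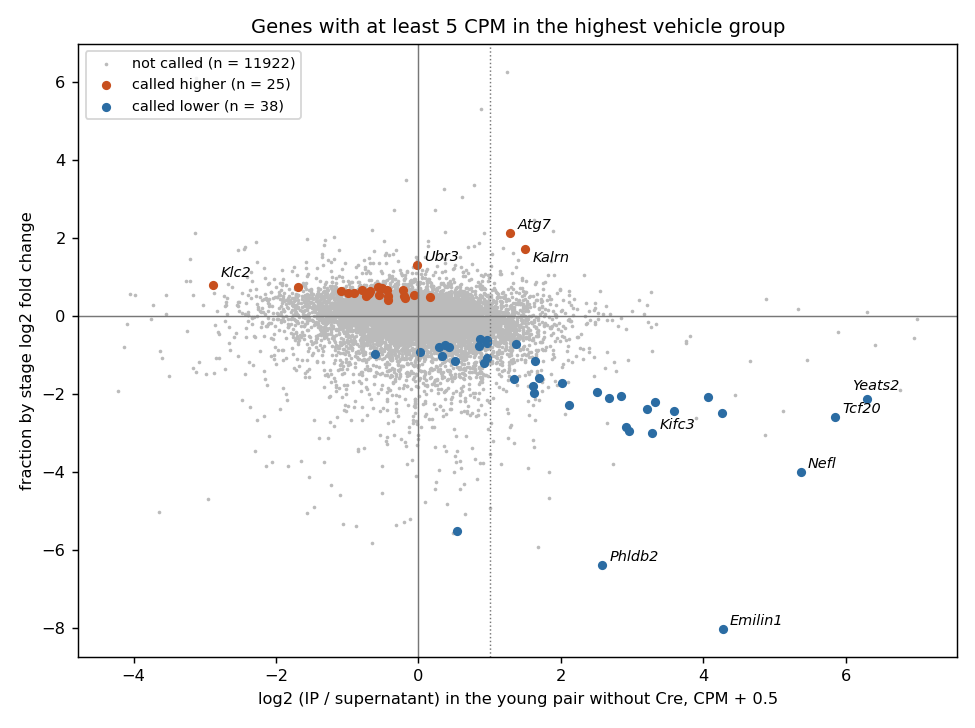
Fraction-by-stage log2 fold change (vertical) against the log2 IP to supernatant ratio of the young pair without Cre (horizontal, CPM plus 0.5), for genes of at least 5 CPM in the highest vehicle group. Orange points rose, blue points fell, and grey points were not called; the dotted line marks a 2-fold higher level in the IP without Cre, beyond which 24 of the 38 falls shown lie.

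Of the 3 rises above 2-fold, Atg7 and Kalrn were also enriched in the IP without Cre, and Ubr3 was not. Atg7 encodes the enzyme that activates the conjugation proteins of autophagosome formation, and lies on chromosome 6 from 114643097 to 114860614. Young IP libraries held 34.6 CPM at the lowest, 85.1 at the median and 99.8 at the highest. Adult IP libraries held 509, 404, 181, 278 and 240 CPM, all above every young one. The supernatants had medians of 38.3 CPM in young and 35.6 CPM in adult mice and overlapped. Its log2 change was 2.13 ± 0.23 (edgeR adjusted p = 0.00067) and the call held without each pair in turn. In the pair without Cre, Atg7 was already 2.45-fold higher in the IP (106 CPM against 43.2 CPM). On the log2 scale that ratio was 1.29, just above the range of the 6 young pairs with Cre (0.23 to 1.28).

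Kalrn encodes kalirin, a guanine nucleotide exchange factor of dendritic spines. It was measured at 27.2 to 63.2 CPM in young IP, with a median of 51.4, and at 137, 204, 143, 102 and 105 CPM in adult IP, again without overlap. The change was 1.73 ± 0.24 (edgeR adjusted p = 0.00569), held without each pair in turn, and went with a log2 ratio of 1.5 in the pair without Cre. That ratio lay above the range of the young pairs with Cre (-0.05 to 1.09). For Atg7 and Kalrn too, a rise of the captured background with age and a rise in GnRH neurons cannot be told apart. Ubr3, a ubiquitin ligase gene of the N-recognin family, was at 36.9 to 65.0 CPM in young IP and 88.5, 157, 174, 126 and 95.4 CPM in adult IP. Its change was 1.32 ± 0.23 (edgeR adjusted p = 0.0245), and its log2 ratio without Cre was -0.02. The Ubr3 call was lost without adult replicate 3 or 4 or young replicate 1, 2, 3 or 4, with adjusted p up to 0.0791 and log2 values from 1.21 to 1.47.

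**Figure D3:**
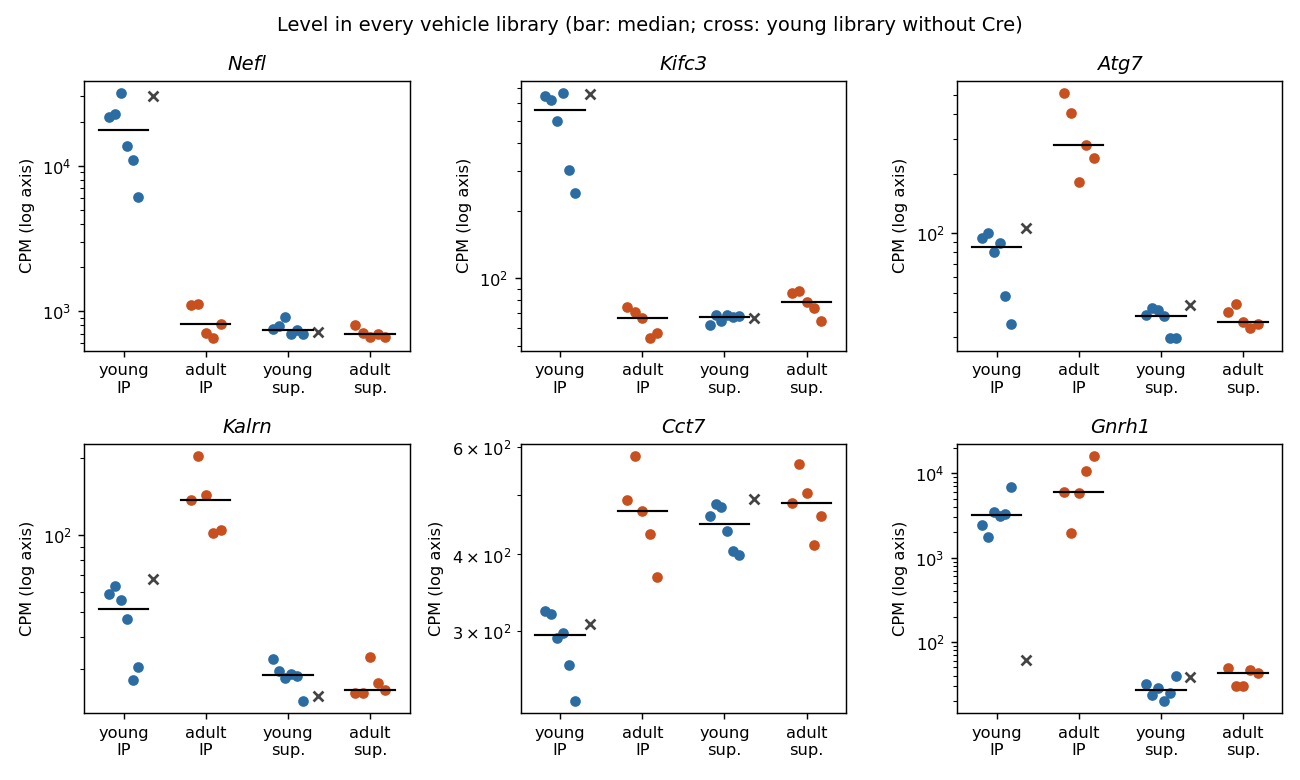
CPM on a log axis in every vehicle library for Nefl, Kifc3, Atg7, Kalrn, Cct7 and Gnrh1, by fraction and age, with a bar at each group's median and a cross for the young library without Cre. In adult IP, Nefl and Kifc3 lie close to their supernatant levels, Atg7 and Kalrn lie above both supernatants, and Cct7 lies at about its supernatant level; the adult and young IP libraries of Gnrh1 overlap.

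The remaining rises were below 2-fold. Of the 25 rises, 21 had a mean pair log2 ratio below 0 in young mice, where 53.9% of all genes did; in adults 11 of these were still below 0 and 10 above it. In all, 22 had a log2 ratio below 0 in the pair without Cre, where 49.5% of all genes did. Cct7 and Cct4 encode subunits of the chaperonin that folds actin and tubulin. Cct7 stood at 230 CPM, 295 and 324 CPM (lowest, median and highest) in young IP and at 491, 579, 472, 432 and 367 CPM in adult IP, a change of 0.64 ± 0.10 (edgeR adjusted p = 0.012) that held without each pair in turn. Cct4 changed by 0.68 ± 0.13 (edgeR adjusted p = 0.0324), from 137 to 180 CPM to 224 to 374 CPM.

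Ubb, a polyubiquitin gene, was at 1962 to 3261 CPM in young IP and 3163 to 4201 CPM in adult IP. The IP levels overlapped and the pair ratios did not, and the change was 0.71 ± 0.11 (edgeR adjusted p = 0.0092), held without each pair in turn. Its ubiquitin repeats also occur in other ubiquitin genes, so its own share of the reads is uncertain. Vcp, a segregase gene that extracts ubiquitinated proteins, changed by 0.60 ± 0.12 (edgeR adjusted p = 0.0439), Stip1, which couples the chaperones Hsp70 and Hsp90, by 0.51 ± 0.10, and Fkbp4, an Hsp90 cochaperone of steroid receptors, by 0.60 ± 0.10. Stip1 and Fkbp4 were named after their values were seen. Without the replicate block, the calls of Vcp and Stip1 were lost (edgeR adjusted p = 0.078 and 0.214), as were those of Klc2 (0.094), Calb2 (0.207), Gnas (0.06) and Ndn (0.202), all named here.

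On the heat shock and proteasome list, Cct4 and Cct7 rose, none of the 43 tested members fell, and all 43 had positive values, or 41 of 43 with library totals as the only scaling. Of all 16201 genes tested, 0.154% rose and 6887 had positive values, or 5952 with library totals only. The share of positive values among genes of like level was not counted. The list median was 0.34 against -0.10 over all genes and 0.13 over genes with a mean of 100 CPM or more. Hspa8, the constitutive Hsp70 gene, was at 0.59 ± 0.13 (edgeR adjusted p = 0.0635), with 1710 to 2526 CPM in young IP and 3111 to 5868 CPM in adult IP. The summed level of the list was 13497 to 15777 CPM in young IP and 17994 to 22995 CPM in adult IP, without overlap, against 12837 CPM in the IP without Cre. In the supernatants it was 14555 to 15647 CPM in young and 14374 to 17328 CPM in adult mice.

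Other rises were Klc2, a kinesin light chain gene, at 0.80 ± 0.15, and Ppme1, a methylesterase gene of protein phosphatase 2A, at 0.75 ± 0.13. Calb2, the calretinin gene, changed by 0.67 ± 0.11, from 198 to 402 CPM in young IP to 360 to 531 CPM in adult IP. The mitochondrial ribosomal protein gene Mrps5 changed by 0.67 ± 0.13 and the splicing factor gene Sf3b2 by 0.63 ± 0.13. Gnas, which encodes the stimulatory G protein alpha subunit and was named after its values were seen, changed by 0.41 ± 0.08. Ndn, an imprinted gene with a known part in GnRH neuron development, was the 1 member of the imprinted and puberty list of 17 that passed, at 0.58 ± 0.11 (edgeR adjusted p = 0.0279). Its IP range was 1468 to 1909 CPM in young and 1481 to 2506 CPM in adult mice. Over all genes tested, 0.154% rose.

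The rises other than Atg7, Kalrn, Ubb and Cct7 depended on single pairs. Of the 12 largest rises, those 4 were the calls left without adult replicate 4 and without young replicate 1, 3 or 4, and 5 were left without young replicate 2. Without adult replicate 3 the number was 7, without adult replicate 5 or young replicate 5 it was 9, and it was 10 without adult replicate 1, 11 without adult replicate 2 and 12 without young replicate 6. Sf3b2 and Mrps5 were each called in 2 of the 11 fits, with adjusted p up to 0.122 and 0.108. Their values moved little, from 0.58 to 0.71 for Sf3b2 and from 0.63 to 0.71 for Mrps5.

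Of the oxidative phosphorylation genes, 1 rose. Uqcrfs1, the Rieske iron-sulfur subunit gene of respiratory complex III, rose by 0.55 ± 0.10 (edgeR adjusted p = 0.0306) and was the only call among the 48 genes of that list. Its IP libraries overlapped between ages, with a median of 412 CPM in young IP and 430, 338, 417, 446 and 480 CPM in adult IP. Its supernatant went from 422 to 466 CPM in young mice to 297 to 361 CPM in adults. All 48 members had positive values, or 46 of 48 with library totals as the only scaling, with a median of 0.33. Over all 16201 genes tested, 0.154% rose and 6887 had positive values. The median was 0.13 in genes with a mean of 100 CPM or more, and their share of positive values was not counted. The list's median change with age was 0.02 in the IP, where none was called by edgeR (4 at an unadjusted p below 0.05, 2 by DESeq2, 3 by limma-voom), and -0.30 in the supernatant, where 29 were lower and 1 higher. In the IP, 2327 of 14873 genes had an unadjusted edgeR p below 0.05, DESeq2 called 994 and limma-voom 849. In the supernatant, 10.8% of 15815 genes were called lower and 8.39% higher.

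Among the other rises were 3 enzyme genes of energy metabolism, chosen after their values were seen and not from a list. Aldoa, the aldolase gene, was at 2710 to 3815 CPM in young IP and 3940 to 4614 CPM in adult IP, a change of 0.54 ± 0.11 (edgeR adjusted p = 0.0431). Pkm2, the pyruvate kinase gene as listed in the table, went from 1335 to 1815 CPM to 2028 to 3011 CPM (0.57 ± 0.10), and Mdh1, cytosolic malate dehydrogenase, from 1874 to 2432 CPM to 2490 to 3033 CPM (0.50 ± 0.09). The IP libraries of the 2 ages did not overlap for any of these 3 genes. They were chosen from the calls, and the share of all genes without such overlap was not counted. The lack of overlap is therefore not separate support.

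The transcripts that mark the captured neurons did not pass the test. Gnrh1 (chromosome 14, 67745181 to 67749439) had a median of 3214 CPM in young IP and values of 6065, 1951, 5919, 10540 and 16070 CPM in adult IP. Adult replicates 1, 2 and 3 lay inside the young range of 1751 to 6817 CPM, and adult replicates 4 and 5 above all young ones. The fraction-by-stage change was 0.61 ± 0.39 (edgeR adjusted p = 0.584; exact two-sided permutation p = 0.258 over 11 pairs). Without a single pair it ran from 0.32 to 0.96, so neither a change of this size nor its absence is shown at this spread. Pair log2 ratios were 6.18 to 7.43 in young and 6.01 to 8.53 in adult mice, against 0.68 in the pair without Cre.

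Of the 20 tested genes of the GnRH neuron list none passed by edgeR, 1 had an unadjusted p below 0.05, DESeq2 and limma-voom each called 1, and 10 had positive values. Over all 16201 genes tested, 11.9% had an unadjusted edgeR p below 0.05, and 6887 had positive values. DESeq2 called 301 of all genes higher and 557 lower, and limma-voom 266 and 121. Six6, a homeobox gene of GnRH neuron development, was at -0.17 ± 0.74 and Isl1, a LIM homeobox gene, at 0.35 ± 0.22. Kiss1r, the receptor for kisspeptin, was at 0.31 ± 0.35. The tagged protein's own gene, Rpl10a, was at 0.03 ± 0.20, and the 81 ribosomal protein genes held no call by edgeR, with 4 at an unadjusted p below 0.05, 0 called by DESeq2 and 3 by limma-voom. Their median was 0.24, with 74 positive values (67 with library totals only). Genes with a mean of 100 CPM or more had a median of 0.13.

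Some transcripts were higher in adults in both fractions, and their difference between fractions was not called. Kiss1, the kisspeptin precursor gene, was higher in adults by 2.62 on the log2 scale in the IP (edgeR adjusted p = 0.00381) and by 2.21 in the supernatant (edgeR adjusted p = 2e-05), and its difference was 0.41 ± 0.32 (edgeR adjusted p = 0.662). Gal, the galanin gene, was higher in adults by 1.52 in the IP and 0.76 in the supernatant, with a difference of 0.66 ± 0.26 (edgeR adjusted p = 0.32). Its adult IP values of 125, 130, 215, 350 and 290 CPM were all above the young range of 52.7 to 101 CPM. The estrogen receptor gene Esr1 was at 0.02 ± 0.96 and the progesterone receptor gene Pgr at -0.30 ± 0.30, with Esr1 in adult IP spread from 0.55 to 45.8 CPM.

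The genes whose level over the 11 vehicle IP libraries was most like that of Gnrh1 were Prdx1 (Pearson r of log2 CPM 0.978), Gchfr (0.968), Tstd1 (0.965), Nsmce1 (0.949), Meig1 (0.948), Spint2 (0.946), Efcab10 (0.944), Prdx2 (0.941), Spata5 (0.933) and Pafah1b3 (0.931), among 11338 genes. The 11 points share their libraries and span both ages, so r describes the ordering of these IP libraries. None of the 10 was called in the fraction-by-stage contrast by edgeR or DESeq2, 2 had an unadjusted p below 0.05 and limma-voom called 2. Of all 16201 genes tested, 11.9% had an unadjusted edgeR p below 0.05. Prdx1, a peroxide-reducing enzyme gene, was at 0.35 ± 0.13 and Tstd1 at 0.99 ± 0.62.

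Among markers of other cell types, 1 astrocyte transcript fell. Gfap, the intermediate filament gene of astrocytes, was at 253 to 352 CPM in young IP and at 173, 49.2, 116, 69.8 and 100 CPM in adult IP, without overlap. Its change was -1.01 ± 0.19 (edgeR adjusted p = 0.0372). The call held in 2 of the 11 fits that each left out a pair (adjusted p from 0.000372 to 0.135), and its adjusted p was 0.201 without the replicate block. Gfap was the 1 fall among 16 tested astrocyte genes and none rose. Of the 16, 14 had negative values (13 with RLE size factors), and the list median was -0.23 against -0.10 over all genes. Of all 16201 genes tested, 0.309% fell and 9314 had negative values (9092 with RLE size factors). The summed level of the list was 1255 to 1570 CPM in young IP and 1038 to 1700 CPM in adult IP. Of the 2 positive members, Aldoc, an aldolase gene of astrocytes, was at 0.44 ± 0.11 (edgeR adjusted p = 0.114).

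No mature oligodendrocyte gene of 23 passed by edgeR (3 at an unadjusted p below 0.05, 1 by DESeq2, 1 by limma-voom), while the list's summed level was lower in adults in both fractions. It was 4727 to 5975 CPM in young and 2773 to 3781 CPM in adult IP, and 5982 to 7962 CPM in young and 3440 to 5244 CPM in adult supernatant. Cnp, a myelin enzyme gene, was lower in adults by 1.05 on the log2 scale in the IP and by 1.34 in the supernatant, with a difference of 0.26 ± 0.11 (edgeR adjusted p = 0.336). Nuclear and noncoding RNAs also held no call by edgeR among 16 (4 at an unadjusted p below 0.05, 2 by DESeq2, 0 by limma-voom), with 15 negative values (13 with RLE size factors) and a median of -0.39. Over all 16201 genes tested, 9314 had negative values and 11.9% an unadjusted edgeR p below 0.05. Malat1, an abundant nuclear RNA, was at -0.70 ± 0.25 (edgeR adjusted p = 0.284), with 830 to 1536 CPM in young IP and 270 to 699 CPM in adult IP. Its supernatant was also lower in adults, by 0.76 on the log2 scale.

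**Figure D4:**
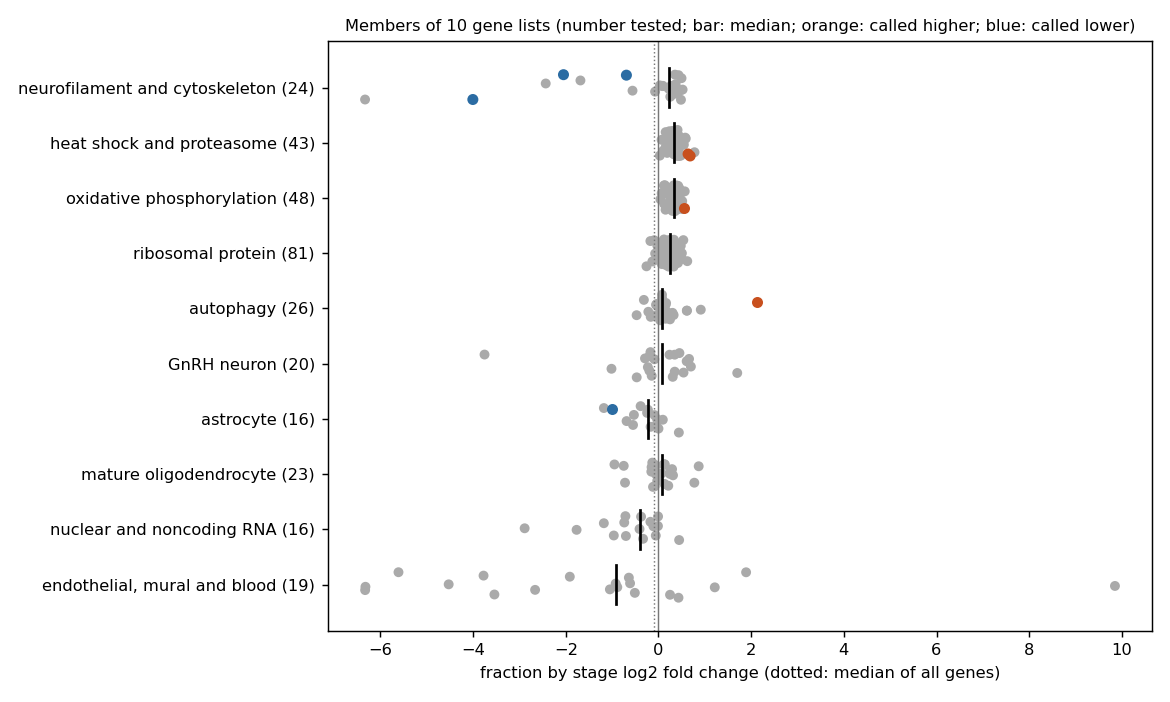
Fraction-by-stage log2 fold change of each tested member of 10 gene lists, with the number tested in brackets, a bar at the list's median and a dotted line at the median of all genes (-0.10). Orange points rose and blue points fell; the heat shock and oxidative phosphorylation members all lie above 0, and the vascular list has the widest spread.

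Vascular transcripts were low and uneven. Of 19 tested endothelial, mural and blood genes none passed by edgeR, 8 had an unadjusted p below 0.05, DESeq2 called 4 and limma-voom 1. The share with an unadjusted edgeR p below 0.05 was 11.9% over all 16201 genes tested. Of the 19, 14 had negative values and the median was -0.92, with values from -6.33 to 9.85. Negative values were found in 9314 of all 16201 genes. The median was -0.86 in genes with a mean of 1 to 5 CPM and -1.44 in those below 1 CPM. Cldn5, the claudin of endothelial tight junctions, was at 3.78 to 16.3 CPM in young IP. Adult IP libraries held 0.0465, 0.0256, 0.0276, 2.2 and 0.0524 CPM, so 88 of their 94 reads came from adult replicate 4. Its change was -4.53 ± 0.99 (edgeR adjusted p = 0.0637).

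Among the 50 falls, 12 had a mean under 5 CPM in every vehicle group and a median change of -7.35; 2 of the 12 are named here, after their values were seen. Vwf, the von Willebrand factor gene of endothelium, was at 1.46 to 3.63 CPM in young IP, with a total of 593 reads in 6 libraries, and had 1 read in the 5 adult IP libraries. Fli1, an endothelial and blood transcription factor gene, had 691 reads in young and 2 in adult IP. A count of 0 in an adult IP allows a level of up to 0.0698 to 0.0829 CPM (3 counts of the library total, counting error only). The edgeR adjusted p of Vwf was 0.0491 and it was lost in each of the 11 fits that left out a pair, with adjusted p from 0.0589 to 0.123. For Fli1 it was 0.0324. None of the 12 was called in DHT mice by edgeR, DESeq2 or limma-voom, and 0 had an unadjusted p below 0.05 there. Of the 16007 genes tested in DHT mice, 1990 had an unadjusted edgeR p below 0.05.

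Low levels moved together over the whole table. In the 2182 genes with a mean below 1 CPM, 47.1% of adult IP values and 28.0% of young IP values were 0, and the median fraction-by-stage change was -1.44. In the 2662 genes of 1 to 5 CPM these were 12.6%, 4.04% and -0.86. From 20 to 100 CPM the median was 0.02, and from 100 CPM up it was 0.13. The part of missed low-level reads in the falls of low genes was not tested.

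The young IP libraries also differed from each other in the genes of the largest falls and rises. Young replicate 6 had the lowest young level for 10 of the 12 largest falls, and young replicates 5 and 6 were the 2 lowest for 9 of them. For the 12 largest rises, young replicate 6 was the lowest young library for 8 and adult replicate 2 the highest adult library for 8. How often these libraries ranked so over all tested genes was not counted, and the counts have no background to be read against. Replicate 6 also had the highest Gnrh1 of the young IP (6817 CPM), and adult replicate 2 the lowest of the adult IP. Without young replicates 5 and 6, 41 genes rose and 39 fell, among them 20 of the 25 and 28 of the 50.

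The same contrast was taken in DHT mice. Of 16007 genes tested there, 20 rose (0.125%) and 74 fell (0.462%), together 0.587%. All 25 vehicle rises and 49 of the 50 falls had the same sign in DHT mice, as did 62.1% of the 15924 genes tested in both. In number, 6 rises and 27 falls were called in both, which is 44.0% of the 75 vehicle calls and 35.1% of the 94 DHT calls. Nefl changed by -3.92 in DHT mice, Kifc3 by -2.88 and Pom121 by -2.77, beside -4.01, -3.00 and -2.85 in vehicle mice. Atg7 changed by 1.91, Kalrn by 2.13, Ubr3 by 1.39 and Ubb by 0.68. Cct7, at 0.40 in DHT mice (edgeR adjusted p = 0.318), and Cct4, at 0.59 (edgeR adjusted p = 0.158), were not called there. Of the 12 largest falls 10 were called in DHT mice, and of the 12 largest rises 4 were. The falls not called were Emilin1, at -3.40 (edgeR adjusted p = 0.194), and Phldb2, at -4.98 (edgeR adjusted p = 0.12). Among the rises not called, Klc2 was at 0.26 (edgeR adjusted p = 0.612) and Ppme1 at 0.21 (edgeR adjusted p = 0.695).

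**Figure D5:**
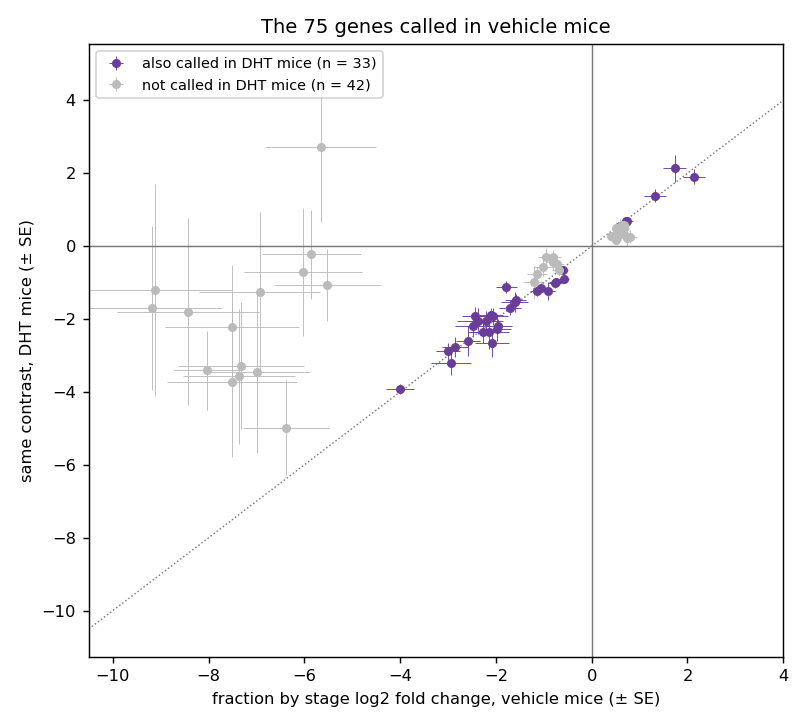
Fraction-by-stage log2 fold change in DHT mice (vertical) against vehicle mice (horizontal) for the 75 genes called in vehicle mice, each with its SE, and a dotted line at equality. Purple points were called in both (33 genes) and lie near the line; the grey points below -5 on the horizontal axis are the low-level falls and Emilin1, Phldb2 and Bcl2l11.

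The difference between the vehicle and the DHT contrast was itself tested over the 46 libraries of Cre mice. No gene of 16660 passed by edgeR, and 753 (4.52%) had an unadjusted p below 0.05. Limma-voom and edgeR with RLE size factors also called 0, edgeR without the replicate block called 4, and DESeq2 called 57. Emilin1 showed the widest gap among the genes above 5 CPM named here, at -8.02 in vehicle and -3.40 in DHT mice, and its difference was not called.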

How the data were processed

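RNA was measured by poly(A) sequencing of 48 mouse libraries, prepared with a SMARTer v4 low-input kit per the labels. The values are estimated counts per gene as deposited by the authors, and 98.49% of them are whole. They were rounded to whole numbers, since the count model needs them. Per the submitters' processing notes, the build was mm10 and the tools were TopHat2 2.0.13 with Bowtie2 2.2.1, HTSeq 0.6.1, Cufflinks, DESeq2 1.14.1, Cuffdiff 2.1.1 and FastQC 0.11.3. The counting tool and its annotation are not given in the sources used here. The kit does not mark strand, so overlapping genes on opposite strands share reads. Coordinates are those of the GENCODE M21 annotation of mm10.

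The 22 vehicle libraries were fitted with edgeR 4.0.16 (R 4.3.3): filterByExpr (minimum count 10, total 15), TMM scaling, a robust quasi-likelihood test, and Benjamini-Hochberg adjustment over all genes at 0.05. A block tied each IP to the supernatant of the same condition and replicate number. The SE of an edgeR value was derived as the absolute log2 change divided by the square root of the test's F statistic. The labels give the shared numbers without saying that they pair the fractions; the supernatant is labelled as depleted, the remainder of a capture. Over 11 pairs, the correlation of their deviations from the group means ran from 0.0567 to 0.244, was over 0.1 in 9, and was highest with the own number in 9. IP and supernatant were also each compared between ages without a block, and the DHT contrast and its difference from the vehicle contrast with one. Single genes were tested by an exact two-sided permutation of pair log2 ratios (0.5 CPM added). Alternatives used DESeq2 1.42.0, limma 3.58.1, other scalings, filters and sample sets. The edgeR fit of the vehicle contrast was checked on simulated counts, with changes placed in genes of at least 5 CPM on average. It called 35 of 100 genes changed 2-fold and 70 of 100 changed 4-fold. Of 16001 unchanged genes 6 were called. A gene without a call may therefore still have changed. Python 3.11.15 and matplotlib 3.10.9 made summaries and plots.

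Genes named are the 12 largest rises and 12 largest falls among calls with at least 5 CPM in the highest group and no overlap of pair ratios, for each described list up to 4 members lowest in adjusted p, and always Rpl10a, Gnrh1, Kiss1, Kiss1r, Gal, Six6, Isl1, Pgr and Esr1. Another 12 genes were chosen after their values were seen, and predicted genes were counted and not named. Of 33 gene lists, 11 are described. Members and lists were chosen with earlier results of these data known.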

Additional observations from a re-analysis of the deposited data

Results flagged for a closer look

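In each age group, the pair furthest from the others was compared with the range of the group for the 71 genes named or summarised. Of 142 such checks, 8 found a pair far from the rest, and chance flags about 1 in 20 groups. Values are log2 IP to supernatant ratios.

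Young replicate 6 was the pair that stood apart for 3 genes. It had the lowest ratio for Pom121 (1.56, with the next pair at 2.51) and for Hspa8 (-0.825, next -0.394), and the highest for the ribosomal protein gene Rpl19 (1.15, next 0.456). Young replicate 2 was lowest for Isl1 (0.138, next 0.814). Young replicate 5 was lowest for Bcl2l11, a cell death regulator gene among the falls, chosen after its values were seen (-1.96, next 0.752). Adult replicate 2 was highest for Vcp (0.302, next -0.0524) and lowest for the ribosomal protein gene Rps6 (0.12, next 0.67). Adult replicate 4 was highest for Cldn5 (-0.838, next -1.59), the library that held most of that gene's adult IP reads.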

How the results depend on the processing

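The counts of 25 rises and 50 falls moved by over 1.5 times with the model, single pairs, scaling and the set of genes tested. Without the replicate block, that is without the pairing of IP and supernatant, 40 genes were called higher and 162 lower. DESeq2 gave 301 and 557, limma-voom 266 and 121, and limma on pair ratios 225 and 149; each held all 25 rises, and 50, 47 and 50 of the falls. The rises numbered 44 with RLE size factors, 42 with a mean of at least 5 CPM, 47 over all 46 libraries of Cre mice and 41 without young replicates 5 and 6; the falls stayed within 1.5 times there. Without the genes high in the IP lacking Cre, 13 were higher and 10 lower, among fewer genes. Leaving out 1 pair gave 4 to 60 higher and 19 to 54 lower: 4 and 19 without young replicate 1, 7 and 24 without 2, 4 and 23 without 3, 7 and 22 without 4, 4 and 33 without adult replicate 4. Only the higher count moved by over 1.5 times without adult replicate 3 (12), adult replicate 2 (38) or young replicate 6 (60). The cause was not tested.

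For adult against young IP, DESeq2 called 994 and limma-voom 849, and leaving out 1 library gave 150 to 352: 150, 196, 190 and 167 without young replicates 1 to 4, 213 and 256 without adult replicates 3 and 4. For the supernatant the range was 1979, without adult replicate 3, to 3498. In DHT mice DESeq2 called 665 and limma-voom 208, and the difference of the contrasts had 4 calls without the block and 57 by DESeq2.

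Over the 71 genes and all settings, 1328 of 1608 values kept direction and call, 213 lost the call, 46 gained it and 21 changed sign. Each that changed sign was uncalled: Prokr2, a prokineticin receptor gene, without the block (0.67); Esr1 with library totals (-0.057), pair ratios (-0.42), without young replicates 5 and 6 (-0.24) and over single pairs left out (-0.70 to 0.76); Six6 without the block (0.043), by limma-voom (0.33), with pair ratios (0.084) and over pairs left out (-0.72 to 0.41); Rpl10a with library totals (-0.042) and over pairs left out (-0.055 to 0.21). Over these 71 genes, the fit without the block lost 8 calls, given in the report, and gained that of Atp5f1, an ATP synthase gene. Counts of 0 in adult IP limit the falls of low genes.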
